A study of Mus musculus with 72 samples.

Results

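The genes described here encode spliceosome proteins, LSm proteins of other particles and heterogeneous nuclear ribonucleoproteins (hnRNPs) of mouse embryonic stem cells (mESCs). They were chosen by symbol, as protein-coding genes whose names start with Snrp, Sf3a, Sf3b, Prpf, U2af, Hnrnp or Lsm and a digit, and by a mean of 400 or more thymine positions read in exons (T_exon) of nuclear libraries. All 70 genes with such symbols passed that minimum, with means from 5415 for Lsm10 to 957625 for Hnrnpu, among 13009 protein-coding genes that passed it in the whole series. Of the 70 genes, 20 were hnRNP genes and 50 were core spliceosome genes, here the genes of the Sm ring (8), of U1- and U2-specific proteins (4), of SF3A and SF3B (9), of U2AF (3), of PRPF proteins (13) and of LSm proteins (13). Core is a name for all genes without an Hnrnp symbol. It takes in LSm genes such as Lsm1, Lsm10 and Lsm14a, whose proteins are not spliceosome subunits.

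The spliceosome removes introns from pre-mRNA. Its small nuclear ribonucleoproteins carry a ring of Sm or LSm proteins on each small nuclear RNA, U2AF and the SF3 complexes recognise the 3′ splice site and branch point, and PRPF proteins act in the tri-snRNP and in the rearrangements that lead to catalysis. The hnRNPs coat nuclear pre-mRNA, influence the choice of splice sites and accompany mRNA to the cytoplasm. Several hnRNP genes are also known to produce transcripts with regulated exons or introns that are not made into full-length protein.

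E14TG2a mESCs, an established line grown on gelatin without feeder cells in serum medium with 2i and LIF, were labeled with 4-thiouridine (4sU) and separated into cytosol (digitonin extract), membrane (NP-40 extract) and nucleus (pellet passed over a sucrose cushion), and an aliquot was kept as whole cells. Buffers used at harvest held cycloheximide, and every library analysed here came from labeled cells. Poly(A) RNA was sequenced after alkylation, which makes labeled thymines read as cytosines (T2C conversions). Of 72 libraries, 64 from 16 cultures were used: replicates 1 and 2 at 15, 20 and 30 min, replicates 3 and 4 at 20, 40 and 60 min, and replicates 5 and 6 at 60 and 120 min, each culture with 4 libraries. The 8 libraries of replicates 3 and 4 at 120 min were set aside. The labels give 500 µM 4sU for 15 to 40 min and 100 µM for 60 and 120 min. The study's methods instead list 500 µM up to and including 60 min and 100 µM from 60 min on. They leave out samples with 500 µM for longer than 60 min. Labeling time, dose and replicate pair therefore cannot be told apart in full. Replicates were independently passaged cultures.

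The libraries held 15382522 to 52975732 gene counts and conversion rates, the estimated chance that a thymine of a newly made transcript was read as cytosine, of 2.07 to 8.29%. In whole cells all 7 stem cell markers were present, with a summed median of 5161 CPM and a range of 3344 to 6288. CPM are read counts relative to library size, here without TMM scaling and with it in the comparisons of fractions below. The sum was 7.80 (1.78 to 12.7) for 5 fibroblast markers, of which Col3a1 and Postn had medians of 0. It was 3.10 for 3 endoderm markers, 5.35 for 3 trophoblast markers and 41.7 for 3 neuronal markers, with most of the last from Tubb3. Replicate 3 stood apart. Its nuclear libraries at 20 and 60 min held more intron sequence than those of all other replicates at the same times, also among the genes described here (hnRNP medians of 74.6% and 36.2% of T_exon, against 32.7 to 36.5% and 8.82 to 10.6%). Nucleus over cytosol ratios also differed between the replicate pairs, and values by pair are therefore given beside the results they touch.

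The comparison of nucleus with cytosol asks where the poly(A) RNA of each gene lies at steady state. Most spliceosome and hnRNP transcripts took a smaller share of nuclear than of cytosolic reads: of 69 genes tested, 44 were lower in the nucleus, 9 were higher and 16 were not called. Among all 15078 genes tested, 31.3% were lower and 35.1% higher. The median log2 difference was -0.69 over the 69 genes and -0.01 over all genes. With scaling by library size only, 31 of the 69 genes were lower and 11 higher, against 21.02% and 42.9% of all genes, since the median of all genes shifted by 0.29. A call required an adjusted p under 0.05 in edgeR's quasi-likelihood test and a log2 difference beyond 0.5. SE and p rest on the spread between libraries of the same labeling time and replicate pair. They leave out the spread between pairs, which is wider for many genes. Values are shares of a library, so that amounts per cell in a fraction are not known, and in bulk RNA fewer cells holding a transcript and less of it per cell cannot be told apart. U2af1l4, a minor paralog of U2af1, did not pass the filter on low counts.

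**Figure D1:**
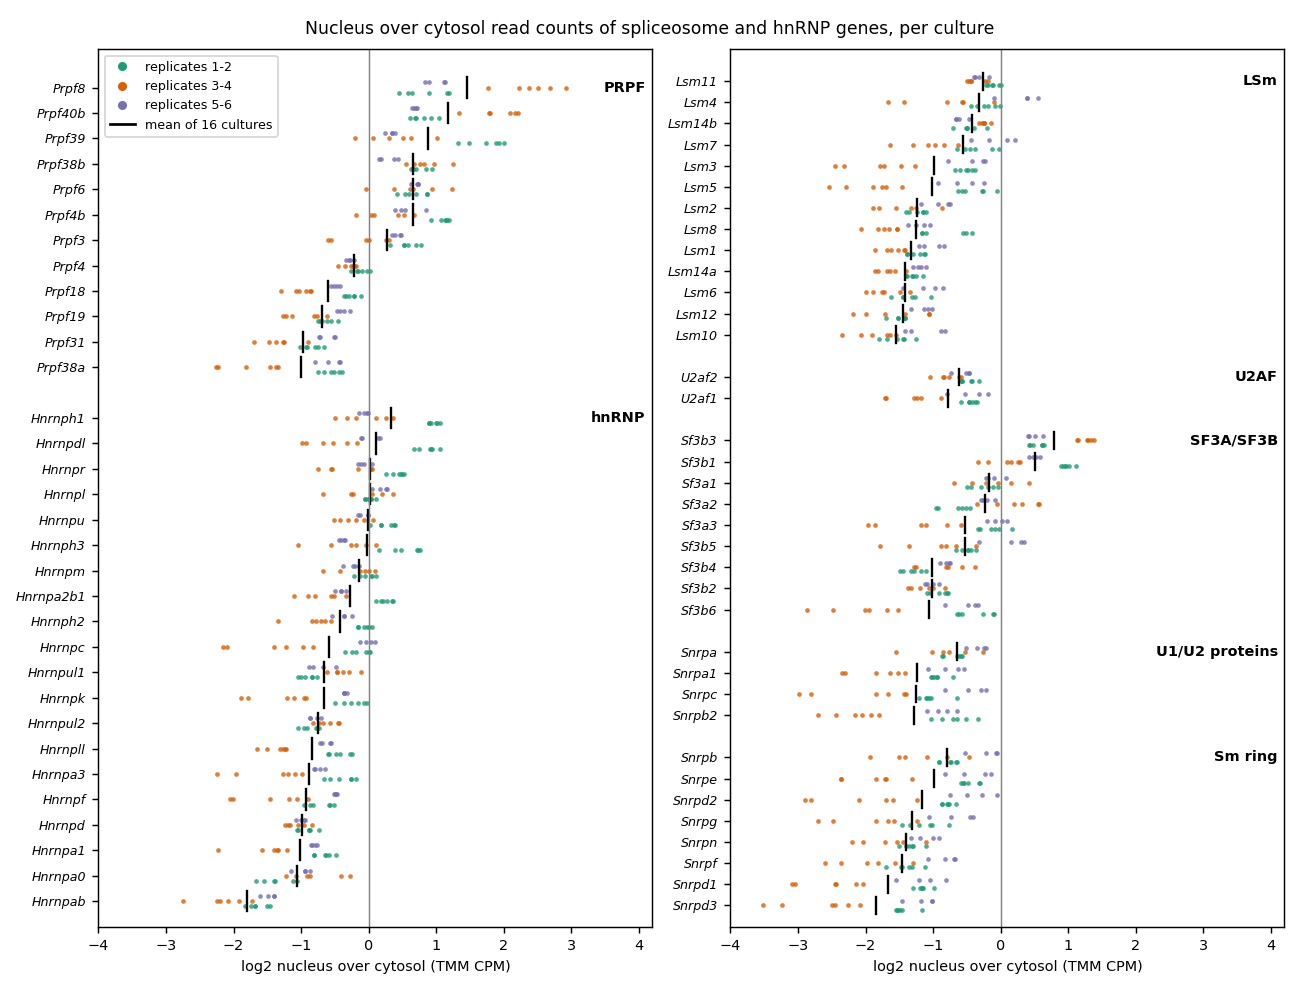
Log2 nucleus over cytosol read counts of 68 genes in each of 16 cultures, grouped by class, with points coloured by replicate pair and a black bar at the mean. The 14 Sm ring, U1/U2 and U2AF genes sit left of 0 in 16 of 16 cultures, Prpf8, Prpf40b and Sf3b3 sit right of 0 in 16 of 16, and replicates 3 and 4 often lie apart from the other pairs.

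All 8 Sm ring genes, whose proteins form the heptameric ring of the U1, U2, U4 and U5 particles, were lower in the nucleus (median log2 difference -1.35). Snrpd3 had the lowest value of all 69 genes, with 35.9 to 119 CPM in nuclei (median 77.4) and 193 to 499 CPM in cytosol (median 251). The ranges did not overlap. The difference was -1.83 ± 0.08 (log2 ± SE, adjusted p = 1.07e-17, edgeR), a 3.55-fold lower share, and it was present in 16 of 16 cultures, with pair means of -1.45, -2.67 and -1.17 for replicates 1 and 2, 3 and 4, and 5 and 6. Snrpd1 followed with 52.0 to 117 CPM in nuclei and 169 to 539 CPM in cytosol (-1.67 ± 0.06), and Snrpf with 25.5 to 70.8 against 108 to 192 CPM (-1.45 ± 0.07). Neither pair of ranges overlapped. Snrpn, which encodes a neuronal Sm B paralog and shares its locus with Snurf, so that reads of the pair may be assigned to either, was at -1.40 ± 0.06. Snrpb, the common Sm B gene, had the smallest difference of the ring (-0.78 ± 0.07), and this call was lost with scaling by library size only, at -0.50.

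The 4 genes of U1- and U2-specific proteins were also all lower in the nucleus (median -1.23). Snrpa1, which encodes the U2 protein A′, had 45.4 to 125 CPM in nuclei and 123 to 276 CPM in cytosol, ranges that overlapped only at their edges, and a difference of -1.23 ± 0.06. Snrpb2, the U2 protein B″, was at -1.29 ± 0.06 and Snrpc, a U1 protein, at -1.23 ± 0.09.

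The SF3 genes, which make the U2-associated complexes that hold the branch point, did not move as a group: 5 were lower, 2 higher and 2 not called. Sf3b3 had 562 to 1060 CPM in nuclei (median 716) and 356 to 485 CPM in cytosol (median 436), with no overlap, and was 1.74-fold higher in the nucleus (0.80 ± 0.06, 16 of 16 cultures). Sf3b1, the large scaffold of SF3B that contacts the branch point, had 612 to 874 CPM in nuclei and 397 to 811 CPM in cytosol. These ranges overlapped. Its difference of 0.51 ± 0.05 was only just past the limit, with pair means of 0.98, 0.05 and 0.50, and the call was lost without replicate 1, 4 or 5 (0.45 to 0.50), without the filter on low counts and with the libraries set aside put back (0.46 in both). Sf3b2, which binds Sf3b4, lay on the other side, with 216 to 342 CPM in nuclei and 413 to 625 CPM in cytosol, no overlap and a difference of -1.02 ± 0.05. Sf3a2 had -0.22 ± 0.06 and was not called.

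U2af1 and U2af2, the small and large subunits of the factor that recognises the 3′ splice site, were both lower in the nucleus. U2af1 had 196 to 333 CPM in nuclei (median 235) and 277 to 745 CPM in cytosol (median 365), ranges that overlapped, and a difference of -0.78 ± 0.05 with a lower share in 16 of 16 cultures. U2af2 was at -0.61 ± 0.05. With scaling by library size only, both fell short of the limit (-0.49 and -0.33). U2af1 (chr17:31647081-31658892, minus strand, GRCm38) has a pair of alternative coding exons of 67 nucleotides, known to be mutually exclusive, which are shown here because their use could be compared between fractions. They are identical at 44 of 67 bases, and capitals mark the 23 that differ. The sequences were read from Gencode transcripts, 5′ to 3′.
U2af1 exon at chr17:31652502-31652568: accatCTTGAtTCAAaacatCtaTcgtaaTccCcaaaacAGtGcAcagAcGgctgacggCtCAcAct
U2af1 exon at chr17:31651646-31651712: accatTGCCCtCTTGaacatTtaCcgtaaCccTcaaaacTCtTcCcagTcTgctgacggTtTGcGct

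PRPF genes had the highest median of the core classes (0.65), with 7 of 13 higher in the nucleus and 4 lower. Prpf8, the large U5 protein at the catalytic centre, had 657 to 1581 CPM in nuclei (median 881) and 203 to 481 CPM in cytosol (median 387). All nuclear values lay above all cytosolic values. The difference was 1.45 ± 0.07 (adjusted p = 8.7e-16, edgeR), a 2.74-fold higher nuclear share, with pair means of 0.82, 2.41 and 0.99. Prpf40b, a U1-associated protein, had 44.8 to 80.8 CPM in nuclei and 15.8 to 38.3 CPM in cytosol, again without overlap, and a difference of 1.18 ± 0.05 (adjusted p = 2.8e-17, edgeR). Prpf39, another U1-associated protein, had 23.5 to 106 CPM in nuclei and 15.8 to 58.6 CPM in cytosol and overlapped widely. Its difference of 0.89 ± 0.10 was present in 15 of 16 cultures and ranged over the pairs from 1.73 in replicates 1 and 2 to 0.38 and 0.33 in the others. Prpf38b was at 0.66 ± 0.05, and Prpf4b, a kinase of the tri-snRNP, at 0.65 ± 0.07. The 4 PRPF genes that were lower were Prpf38a (-1.0), Prpf31 (-0.97), Prpf19 (-0.69) and Prpf18 (-0.60).

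Of 13 LSm genes, which encode the ring of U6 and of cytoplasmic decapping complexes and some larger relatives, 10 were lower in the nucleus and 3 were not called (median -1.23). Lsm10, a subunit of the U7 particle that processes histone mRNA, had 4.67 to 11.3 CPM in nuclei and 16.4 to 27.6 CPM in cytosol, without overlap, and a difference of -1.54 ± 0.09. Lsm1, the subunit that marks the cytoplasmic ring, was at -1.32 ± 0.05 and Lsm14a, a protein of cytoplasmic mRNA granules, at -1.41 ± 0.05. These 2 genes had the same sign in all 16 cultures. The 3 genes without a call, Lsm11, Lsm4 and Lsm14b, had differences of -0.27, -0.31 and -0.42.

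Among the 20 hnRNP genes, 11 were lower in the nucleus and 9 were not called (median -0.63). Hnrnpab had the lowest value, with 321 to 537 CPM in nuclei (median 421) and 1101 to 2274 CPM in cytosol (median 1315), without overlap. The difference was -1.79 ± 0.06 (adjusted p = 3.45e-20, edgeR), a 3.47-fold lower share. Hnrnpa1, an abundant splicing repressor, had 601 to 966 CPM in nuclei and 1309 to 2811 CPM in cytosol, also without overlap (-1.02 ± 0.05). Processed copies of this gene exist in the genome, and reads that matched several places were not counted. Hnrnpd, which binds AU-rich elements, had 253 to 349 against 509 to 678 CPM (-0.99 ± 0.04), with the same sign in all pairs. Hnrnpll, a splicing regulator, was at -0.84 ± 0.05. Hnrnpk, a KH-domain protein that binds C-rich RNA, had 604 to 1053 CPM in nuclei and 1015 to 2395 CPM in cytosol, ranges that overlapped, and was at -0.66 ± 0.06, with pair means of -0.23, -1.31 and -0.35. Hnrnpc, which binds uridine tracts, was at -0.59 ± 0.07. Its call was lost without replicate 3 (-0.42) and, like that of Hnrnpk, with scaling by library size only (-0.30 and -0.38).

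The hnRNP genes without a call included those with the highest ratios of the class. Hnrnph1 (chr11:50376990-50386528, plus strand), which binds G-rich sequence, had 334 to 930 CPM in nuclei (median 706) and 364 to 935 CPM in cytosol (median 436), almost the same range. Its difference was 0.32 ± 0.06, with pair means of 0.96, -0.04 and -0.06, and it was called higher with scaling by library size only. Hnrnpdl, an Hnrnpd paralog, had 322 to 703 CPM in nuclei and 294 to 828 CPM in cytosol and was at 0.11 ± 0.08 (adjusted p = 0.222, edgeR), with a higher nuclear share in 8 of 16 cultures and pair means of 0.88, -0.60 and 0.02. Hnrnpa2b1 (-0.28), Hnrnpl (0.03) and Hnrnpu (-0.02), the last a protein of the nuclear matrix, were not called either. Hnrnph1 and its paralog Hnrnph3 share an exon of 139 nucleotides of which 126 bases are identical. These exons and another Hnrnph1 exon of 144 nucleotides are shown here because, of all hnRNP exons tested, they fell furthest in relative use from cytosol to nucleus. Capitals mark the 13 bases that differ between the paralogs. All 3 exons are coding throughout.
Hnrnph1 exon at chr11:50381459-50381597: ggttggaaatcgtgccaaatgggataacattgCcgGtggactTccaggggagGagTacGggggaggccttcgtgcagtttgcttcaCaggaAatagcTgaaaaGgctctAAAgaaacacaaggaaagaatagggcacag
Hnrnph3 exon at chr10:63018760-63018898, minus strand: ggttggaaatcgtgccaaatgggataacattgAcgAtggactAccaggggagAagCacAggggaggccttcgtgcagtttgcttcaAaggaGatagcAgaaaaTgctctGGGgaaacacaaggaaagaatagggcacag
Hnrnph1 exon at chr11:50379821-50379964: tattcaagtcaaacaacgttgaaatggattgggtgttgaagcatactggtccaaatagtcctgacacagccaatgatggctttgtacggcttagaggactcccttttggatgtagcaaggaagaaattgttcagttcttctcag

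Other genes of the pathway also lay on both sides. Of 50 further spliceosome genes outside the symbol rule, 25 were lower in the nucleus and 5 higher (median -0.44), and of 18 RNA-binding relatives of hnRNPs, 5 were lower and 2 higher (median -0.17). The annotated transcripts differ in build. Lengths and introns are those of the longest annotated protein-coding transcript of each gene, which need not be the one expressed. Core genes had median lengths of 2198 nucleotides and 6.5 introns, and hnRNP genes 2908.5 nucleotides and 10 introns. Across the 69 genes, the log2 nucleus over cytosol ratio rose with transcript length (Spearman's rho 0.54) and number of introns (0.60), against 0.35 and 0.29 across 12961 protein-coding genes. The correlation with length was 0.56 over 49 core genes and 0.12 over 20 hnRNP genes, and with introns 0.62 and 0.40. These are descriptions across genes measured in the same libraries, and genes are not independent replicates.

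The replicate pairs could be compared directly at 20 min, the labeling time that replicates 1 to 4 share. The test was added after the pairs were seen to differ. The nucleus over cytosol ratio was higher in replicates 1 and 2 than in replicates 3 and 4 for 40 of 69 genes and lower for 3, against 18.7% and 18.9% of all genes. All 8 Sm ring genes and 12 of 20 hnRNP genes were among the 40. Sf3b6 differed most, by 2.06 on the log2 scale, followed by Snrpe (1.65), Hnrnpc (1.63), Snrpd2 (1.63) and Lsm5 (1.61). Snrpd1 was at 1.57 and Hnrnpk at 1.28, and the smallest of the 40 were Lsm1 (0.52) and Prpf19 (0.55). The 3 lower genes were Prpf40b (-1.38), Prpf8 (-1.12) and Sf3b3 (-0.66). The median over all genes was -0.06. With scaling by library size only, 18 genes were higher and 7 lower, and without replicate 1 the count of higher genes was 19. What sets the pairs apart was not tested.

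Set against the cytosol, the membrane fraction, which holds RNA of the endoplasmic reticulum, was poorer in hnRNP transcripts. Of 69 genes, 15 were lower and 2 higher in membrane, against 7.51% and 25.5% of all genes. Of the 15, 10 were hnRNP genes (median -0.48 over the 20 hnRNP genes, -0.22 over the core genes and -0.09 over all genes). Membrane CPM were scaled over membrane and cytosolic libraries. The cytosolic CPM given above were scaled over nuclear and cytosolic libraries and cannot be set against them. Hnrnpa1 had 609 to 1213 CPM in membrane (-0.73 ± 0.05) and Hnrnpk 416 to 1035 CPM (-0.72 ± 0.06). Hnrnph1 was at -0.78 ± 0.08 and Hnrnpdl at -0.67 ± 0.08. Each of these 4 genes was lower in membrane in 16 of 16 cultures. Hnrnpll (-0.53), Prpf39 (-0.53) and Hnrnpa3 (-0.51) were lower by the smallest amounts. The lowest value belonged to a core gene, Prpf4b, with 21.2 to 110 CPM in membrane (-1.0 ± 0.10).

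The 2 genes higher in membrane both encode small spliceosome subunits. Lsm4, a subunit of both LSm rings, had 108 to 271 CPM in membrane, and Sf3b5 had 95.1 to 199 CPM. Each gene was higher in membrane than in cytosol in 16 of 16 cultures (0.75 ± 0.09 and 0.67 ± 0.08). None of the 8 Sm genes passed both limits, by edgeR, although 7 had an unadjusted p under 0.05, as had 10472 of all 14506 genes (72.2%). Of the further genes, 7 of 50 spliceosome genes and 6 of 18 hnRNP relatives were lower and none higher, with an unadjusted p under 0.05 in either direction for 44 and 18. Scaling decided these counts. With library size only, the median of all genes shifted by -0.40, 49.0% of all genes were lower and 21.3% higher, and of the 69 genes 54 were lower and 0 higher. The median of the 69 genes moved with it, from -0.34 to -0.74. Without the filter on low counts 36 genes were lower, and without replicate 4 it was 24.

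Intron sequence in poly(A) RNA marks transcripts that were not yet, or not fully, spliced. T_intron over T_exon, the intron reads of a gene set against its own exon reads in the same library, was higher in the nucleus than in the cytosol for all 68 genes that have introns and passed the minimum, as for 90.1% of all genes tested. Sf3b5 and Hnrnpa0 had no intron counts. The genes described here were read more deeply than most. Median nuclear CPM was 363 for hnRNP genes and 84.9 for core genes, against 18.2 over all genes tested for read counts. More reads make a call easier, so that shares of genes called are not a like comparison, here and below. The median log2 difference was 2.83 for hnRNP genes, 2.77 for core genes and 2.22 over all genes. Of the further genes, 50 of 50 spliceosome genes and 17 of 17 hnRNP relatives tested were higher too.

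Snrpd3 showed the widest gap. Its T_intron made up 11.6 to 109% of T_exon in nuclei (median 41.0%) and 0.628 to 4.89% in cytosol (median 2.41%), without overlap, which is a 17.9-fold difference (4.16 ± 0.20). Lsm6, a subunit of the U6 ring, followed with 55.5 to 262% against 1.82 to 11.8% (4.09 ± 0.19), and U2af1 with 50.9 to 320% against 2.32 to 30.1% (3.67 ± 0.17). Snrpd1 was at 3.59 ± 0.15. U2af1 had the highest nuclear median of the 68 genes, at 166%. Hnrnpd had 13.8 to 200.5% in nuclei and 2.21 to 12.6% in cytosol, again without overlap (3.56 ± 0.17), and Sf3b2 was at 3.52 ± 0.15.

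At the other end, the fractions of Prpf38b differed least. It had 33.5 to 112% in nuclei (median 82.6%) and 14.7 to 66.9% in cytosol (median 30.3%), and the ranges overlapped. Its 1.19 ± 0.13 was the smallest difference of the 68 genes. Hnrnph2 (1.31 ± 0.20), Hnrnpu (1.54 ± 0.16), Prpf8 (1.54 ± 0.12) and Sf3b3 (1.60 ± 0.14) came next. Prpf8 held little intron sequence anywhere, with medians of 2.82% in nuclei and 1.04% in cytosol. Among genes with high nuclear and cytosolic values were Hnrnph1, with medians of 77.8% and 13.9% (2.11 ± 0.13), Hnrnpdl, with 98.7% and 17.1% (3.05 ± 0.11), and Prpf39, with 72.0% and 13.2% (2.03 ± 0.14).

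Nuclear intron content varied widely between libraries. Median T_intron over T_exon of hnRNP genes lay between 8.82 and 74.6% over the 16 nuclear libraries (median 28.8%) and that of core genes between 13.6 and 79.9% (median 40.8%). Labeling time was tested only in replicates 3 and 4, at 20, 40 and 60 min (6 libraries), as a slope per hour. By edgeR 0 of 68 genes passed the adjusted limit, while 42 had an unadjusted p under 0.05, against 3463 of 13119 genes (26.4%), and in all genes 0.0457% passed as lower and 0.0152% as higher. The median slope was -1.98 for hnRNP genes, -1.61 for core genes and -1.31 for all genes, in log2 per hour. Hnrnpd had the steepest slope, at -3.05 ± 0.77 (adjusted p = 0.076, edgeR). Replicate 3 decided the count, since 61 genes were lower with time in replicate 4 alone, a fit with 1 library per time, whose spread is that around the line. In that fit 5073 of 13386 genes (37.9%) were lower, and the median slope was -2.44 for the genes described here and -1.77 over all genes. In replicate 3 the hnRNP median was 74.6% at 20 min and 36.2% at 60 min, and in replicate 4 the median at 60 min was 8.82%. By the labels the dose fell at 60 min, but the nuclear conversion rates of these replicates were 3.37 and 3.56% at 20 min, 6.04 and 5.95% at 40 min and 7.66 and 8.29% at 60 min, against 3.25 and 3.53% in replicates 5 and 6 at 60 min under the same label. Whether the dose fell along the slope is therefore uncertain, and its part was not tested.

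**Figure D2:**
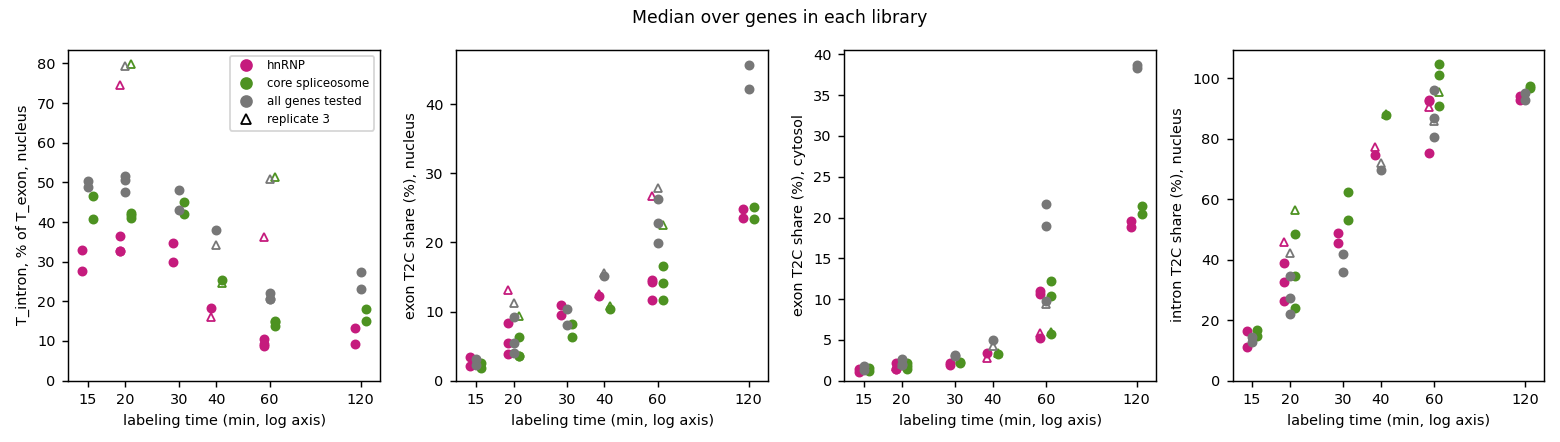
Median over hnRNP genes, core spliceosome genes and all genes tested in each library against labeling time (log axis), for nuclear T_intron over T_exon, nuclear and cytosolic exon T2C shares and nuclear intron T2C shares. Open triangles are replicate 3, whose nuclear intron content at 20 and 60 min lies above the other libraries of those times. At 120 min the exon shares of both gene classes lie below those of all genes.

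The T2C share, T2C over T divided by the conversion rate of the library, estimates how much of the RNA was made during labeling. Because the rate was estimated per library and errors other than conversions were not subtracted, shares can pass 100% and do not start at 0. Nuclear exon shares were higher than cytosolic ones for 67 of 70 genes, against 68.8% of all genes tested. Deeper coverage makes calls easier here too, and the median log2 difference was 1.21 over the 70 genes. The median log2 difference was 1.5 for hnRNP genes, 1.17 for core genes, 0.82 for the Sm ring and 1.07 over all genes. All 20 hnRNP genes were among the 67, and 49 of 50 further spliceosome genes and 18 of 18 hnRNP relatives were higher as well.

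Hnrnph3 had the widest gap between fractions. Its nuclear exon share was 1.67 to 40.1% (median 13.2%) and its cytosolic share 0 to 23.3% (median 1.63%), which gives a 5.52-fold difference (2.46 ± 0.22). The cytosolic share was 0 in replicate 2 at 15 and 20 min, so that the size rests in part on few conversions, and the difference was 3.83 without replicate 1 and 2.11 without replicate 2. Prpf39 had 2.79 to 65.2% in nuclei and 0.534 to 40.3% in cytosol (2.44 ± 0.15), and Hnrnpdl 4.63 to 48.9% against 0.726 to 31.6% (2.33 ± 0.10). Lsm7 (2.20 ± 0.13), Hnrnph1 (2.14 ± 0.10) and Hnrnpk (2.11 ± 0.10) followed. These ranges overlap because shares grow with time in both fractions, while within a culture the nuclear share of the latter 5 genes was higher in 16 of 16.

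The 3 genes without a call were Snrpc (0.45 ± 0.14), Snrpf (0.46 ± 0.16) and Prpf6 (0.47 ± 0.14), each higher in the nucleus in 10 to 13 of 16 cultures. Snrpf, the F protein of the Sm ring, had 0.508 to 13.8% in nuclei and 0.750 to 10.6% in cytosol. Background conversions remain in all shares and weigh most where shares are low, as in Sm genes at short labeling. They can narrow the difference between fractions, and their part was not tested. Sf3b6 (0.52), Prpf8 (0.53), Snrpd3 (0.54), Snrpn (0.55) and Snrpd2 (0.68) were just past the limit. Each of these calls was lost without at least 1 replicate: Prpf8 without replicate 2, Snrpd3 without replicate 1, Snrpd2 without replicate 3 and Snrpn without replicate 1 or 3 and Sf3b6 without replicate 1, 3 or 5. The call of Prpf8 was also lost with the libraries set aside put back (0.49). Without replicate 3, 65 of 70 genes were called.

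**Figure D3:**
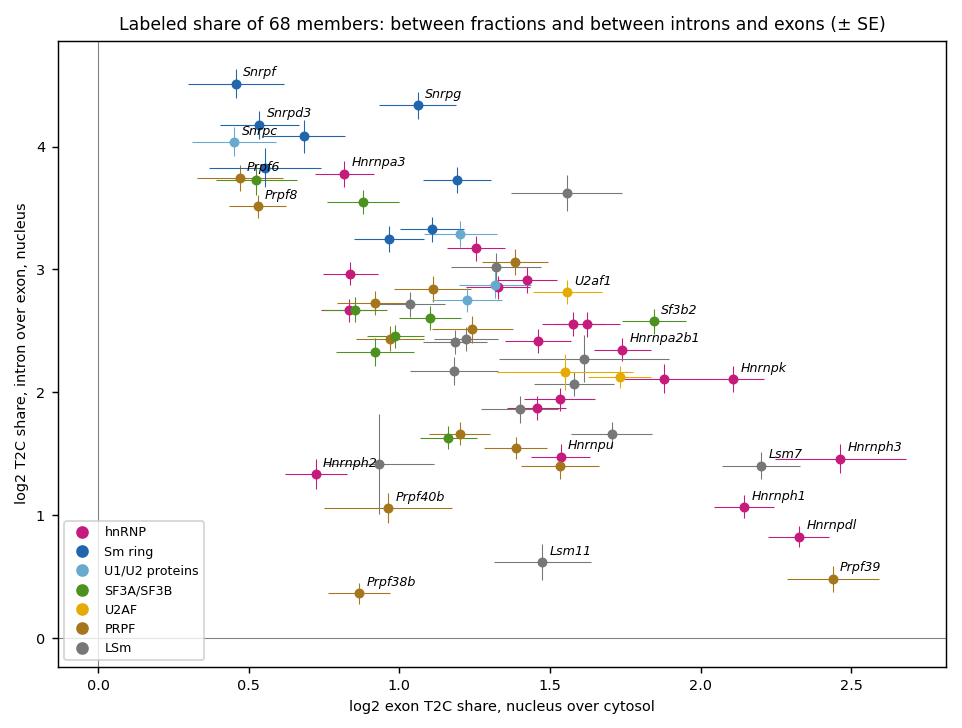
Log2 T2C share of introns over exons in the nucleus (vertical) against log2 exon T2C share of nucleus over cytosol (horizontal) for 68 genes, with SE bars and class colours. Both axes contain the nuclear exon share. Sm ring genes lie at the upper left, with Snrpf at 4.51 and 0.46, and Hnrnph1, Hnrnph3, Hnrnpdl and Prpf39 at the lower right.

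Within the nucleus, introns were labeled to a greater share than exons of the same gene for 66 of 68 genes, against 93.4% of all genes tested. The median log2 difference was 2.35 for hnRNP genes, 2.61 for core genes, 3.96 for the 8 Sm genes and 1.94 over all genes. Further spliceosome genes (50 of 50) and hnRNP relatives (17 of 17) were higher too. In Snrpf, intron shares were 38.2 and 33.6% at 15 min, 89.6 and 97.4% at 30 min and 100.2 and 109% at 120 min, while nuclear exon shares were 0.511 and 0.508%, 2.06 and 3.63%, and 13.8 and 10.2%. From 30 min on, its intron shares were at 89.6% or above while nuclear exon shares were at 13.8% or below. The difference was 4.51 ± 0.12, 22.8-fold. Snrpg (4.34), Snrpd3 (4.18), Snrpd2 (4.08) and Snrpc (4.04) came next.

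Prpf38b (0.36 ± 0.09) and Prpf39 (0.48 ± 0.11) did not pass the size limit. In Prpf39, intron shares were 10.4 and 3.41% at 15 min, 38.8 and 36.6% at 40 min and 92.8 and 103% at 120 min, and nuclear exon shares were 4.24 and 2.79%, 34.5 and 30.4%, and 65.2 and 55.4%. At 30 and 40 min its intron and nuclear exon shares lay close together. Lsm11 (0.62 ± 0.14), Hnrnpdl (0.83 ± 0.08), Prpf40b (1.06 ± 0.12), Hnrnph1 (1.07 ± 0.09) and Hnrnph2 (1.34 ± 0.12) were called but had the smallest differences. In Hnrnpdl, intron shares were 10.5 and 8.94% at 15 min and 84.6 and 84.9% at 120 min, against 6.31 and 4.63%, and 48.9 and 48.1%, in nuclear exons and 1.63 and 0.726%, and 30.5 and 31.6%, in cytosolic exons. Hnrnpdl, Hnrnph1 and Prpf39 thus combined a wide gap between fractions with a narrow gap between introns and exons, and Snrpf, Snrpd3 and Snrpc the reverse. Both values contain the nuclear exon share.

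Intermediate genes are shown by U2af1 and Sf3b1. The intron shares of U2af1 were 12.5 and 9.67% at 15 min and 97.7 and 94.1% at 120 min, and its nuclear exon shares 2.45 and 1.01%, and 21.1 and 18.5% (2.82 ± 0.10). Sf3b1 went from 12.1 and 9.12% to 97.7 and 98.2% in introns and from 1.92 and 1.43% to 28.2 and 27.5% in nuclear exons (2.46 ± 0.10). In the cytosol Sf3b1 exons reached 25.5 and 25.3% at 120 min, close to the nuclear share.

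**Figure D4:**
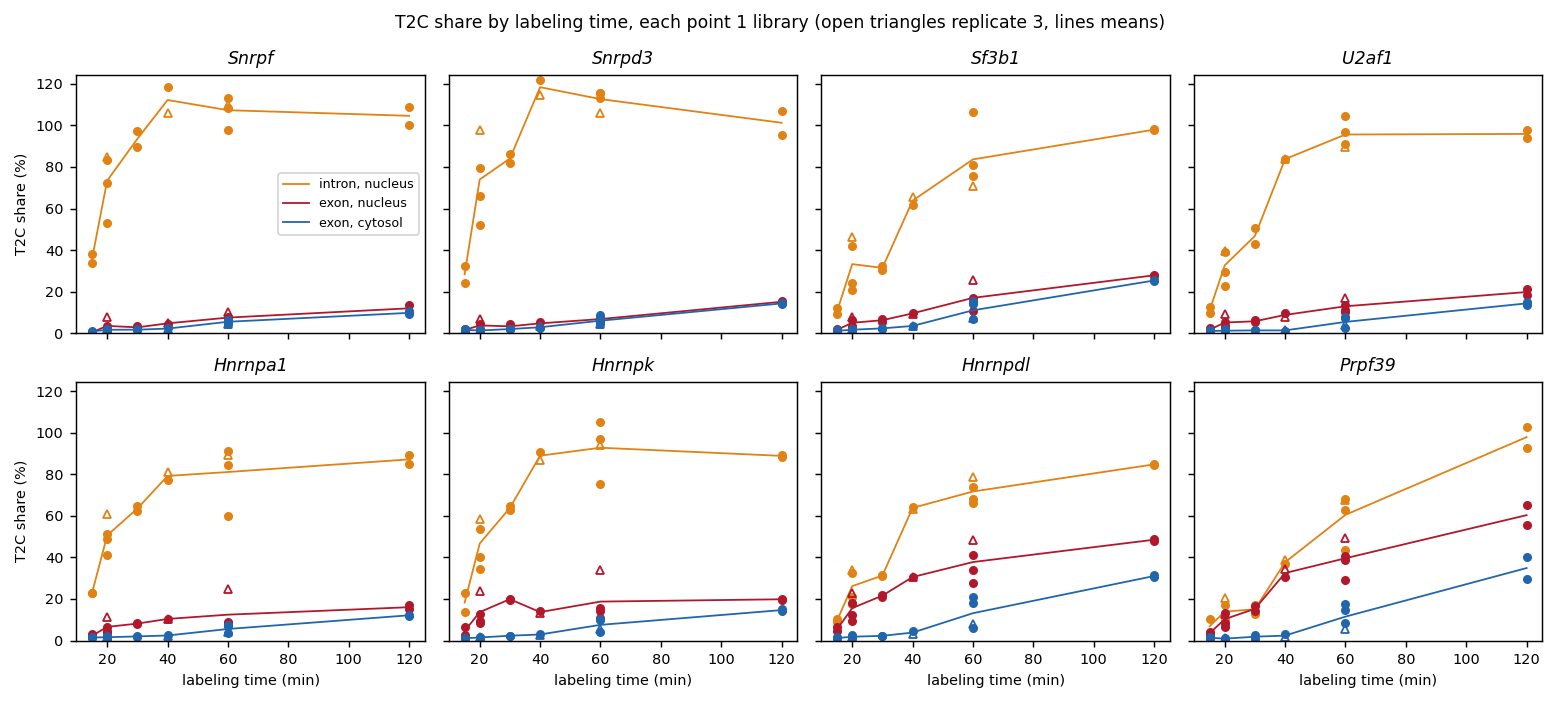
T2C shares (%) of nuclear introns, nuclear exons and cytosolic exons against labeling time (min) for 8 genes, each point 1 library, open triangles replicate 3 and lines the means. In Snrpf and Snrpd3 intron shares are at 82.1 to 97.4% at 30 min while exon shares stay at 15.5% or below up to 120 min, and in Prpf39 introns and nuclear exons lie close together at 30 and 40 min.

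The medians of both classes were then set side by side in each culture, as a description over 16 cultures. The hnRNP median of log2 nucleus over cytosol was above the core median in 14 of 16 cultures (-0.47 against -0.79 on average, a difference of 0.32 ± 0.27 SD). Within the pairs the difference was 0.37, 0.45 and 0.05, so that it was nearly absent in replicates 5 and 6. Of the core classes, PRPF (0.36) and SF3 genes (-0.44) lay above the hnRNP average and the others below it. The hnRNP median of log2 membrane over cytosol was below that of the core in 14 of 16. Nuclear T_intron over T_exon was lower in hnRNP genes in 16 of 16 (26.5% against 34.8%), and so was the intron T2C share in 15 of 16 (59.7% against 67%). The nuclear exon T2C share was higher in 14 of 16 (12.3% against 11.01%). Within the pairs this difference was 1.52, 2.29 and -0.45 percentage points, and in replicates 5 and 6 it was above 0 in 2 of 4 cultures. The cytosolic share was lower in 14 of 16 (5.65% against 6.06%), and the ratio of both was above that of the core in 16 of 16 (3.16 against 2.40). By pair, this ratio differed by 0.86, 1.08 and 0.15, so that the gap was small in replicates 5 and 6. Some core classes passed the hnRNP average. Nuclear intron content was lower in SF3 genes (20.0%) and the intron T2C share in U2AF genes (51.9%). The nuclear exon share was higher in LSm (15.6%) and PRPF genes (12.7%). The cytosolic share was lower in Sm (3.63%), U2AF (4.05%) and U1/U2 genes (4.83%), and the ratio higher in U2AF genes (3.78). Other core classes did not pass it in these measures. The ratio of intron to exon share was lower in hnRNP genes in 13 of 16 and higher in 3 of the 4 cultures of replicates 5 and 6. In both classes the highest cytosolic exon share, at 120 min, was under that of all genes, at 19.6% and 21.4% against 38.7%.

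Exon use, the T count of an exon relative to the rest of its gene, was compared between nucleus and cytosol for 817 exons of 68 genes. In the nucleus 18 exons of 12 genes were higher and 87 exons of 20 genes were lower, against 4.80% and 13.3% of all 98214 exons tested. Of the 18, 17 were last exons, and of the 87, 73 were internal. Over all genes, 22.1% of last exons were higher and 14.7% of internal exons lower, against 15.7% of 108 last exons and 12.1% of 604 internal exons here. The 6 last exons called in U2af1l4 overlap almost entirely and share their reads. They count as 6 of the 18.

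Prpf4b had the clearest contrast along a transcript. Its last exon (chr13:34901393-34906064, 4672 nucleotides, mostly beyond the stop codon) held 125 to 335% of the T counts of the rest of the gene in nuclei (median 223%) and 61.2 to 146% in cytosol (median 110%). The difference was 1.22 ± 0.06, and all 14 other exons tested were lower in the nucleus. The last exon of Hnrnpu (chr1:178324343-178329407) had medians of 62.2% and 37.4% (0.88 ± 0.06), with 4 upstream exons lower, that of Prpf39 93.2% and 56.5% (0.71 ± 0.07), with 6 lower, and that of Lsm11 was at 0.94 ± 0.10. A last exon of Snrpn, listed under 2 overlapping identifiers, was at 0.80 ± 0.09. Prpf8 had 16 lower exons. Relative use is a share, so that a higher last exon lowers the others of its gene.

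A few exons stood out from their neighbours. In U2af2, an exon of 64 nucleotides outside the annotated coding sequence (chr7:5068733-5068796) made up 0.0606 to 0.665% of the rest of the gene in nuclei (median 0.248%) and 0.00341 to 0.156% in cytosol (median 0.0783%). It was a rare exon in both fractions, higher in the nucleus in 16 of 16 cultures (1.92 ± 0.24). In Hnrnpk, an alternative last exon (chr13:58397037-58397796, 760 nucleotides) had medians of 3.11% and 1.84% (0.70 ± 0.08) and was higher in 13 of 16. The Hnrnph1 exon of 144 nucleotides printed above had 2.72 to 5.75% in nuclei and 6.20 to 10.6% in cytosol, without overlap, and a difference of -1.05 ± 0.04. The paralogous exons of 139 nucleotides were both lower in the nucleus, at -0.90 ± 0.06 in Hnrnph1 and -0.95 ± 0.08 in Hnrnph3. These exons are nearly identical, and how reads with several matches entered the T counts is not known here, so that their levels are uncertain. In Prpf39 an exon of 119 nucleotides (chr12:65044006-65044124) had the lowest difference of all 817, with medians of 1.19% and 2.84% (-1.23 ± 0.15), and was lower in 16 of 16. Another Prpf39 exon, of 126 nucleotides (chr12:65043232-65043357), had medians of 1.53% and 2.93% (-0.98 ± 0.15) and was also lower in 16 of 16.

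**Figure D5:**
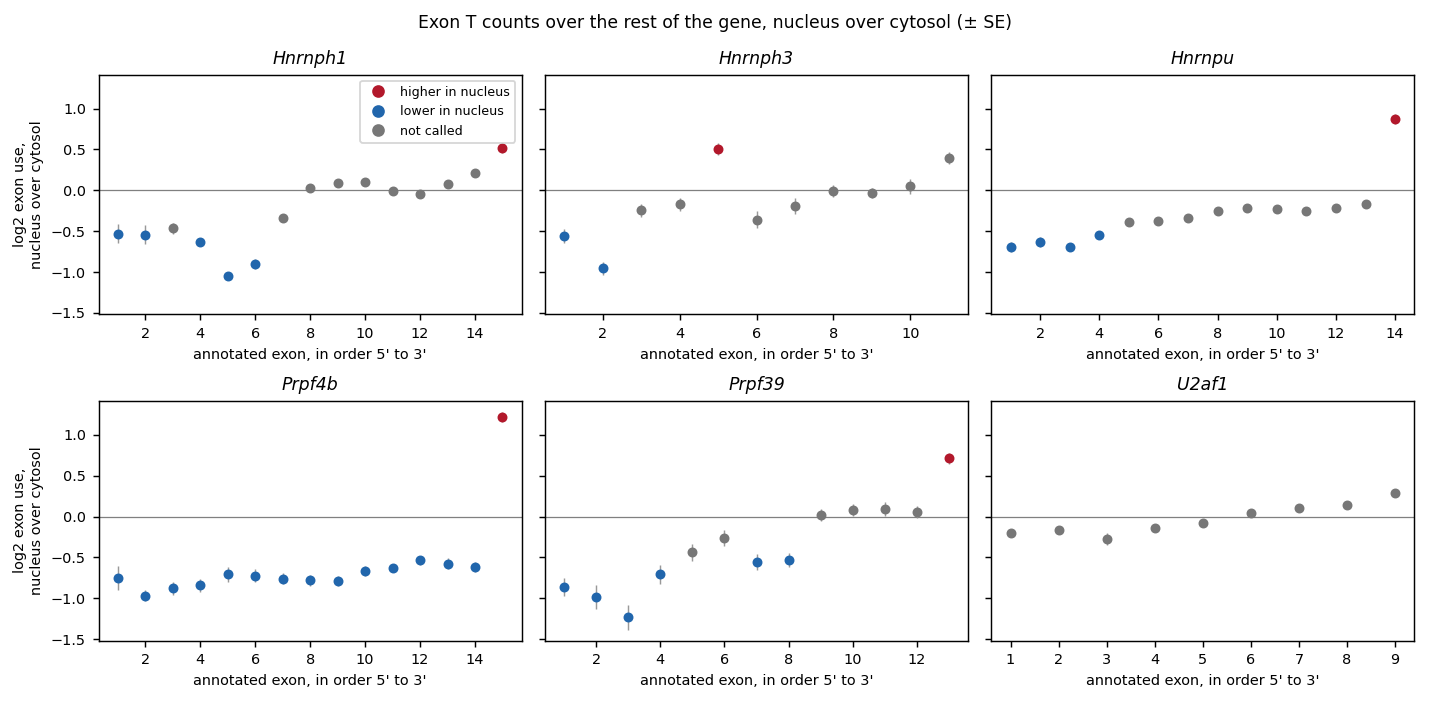
Log2 exon use of nucleus over cytosol, with SE bars, for each exon tested of 6 genes in order along the transcript, coloured by call. In Prpf4b the last exon is at 1.22 and the other 14 are below 0, in Hnrnph1 the lowest exon is at -1.05, and no exon of U2af1 passes the limits.

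The alternative exons of U2af1 were not called. The exon at chr17:31651646-31651712 made up 16.7% of the rest of the gene in nuclei and 18.0% in cytosol (medians, -0.14), and the other 0.679% and 0.811% (-0.28). The former had the higher level in both fractions. Whether their proportion differed between nucleus and cytosol was not tested.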

How the data were processed

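Poly(A) RNA of 64 libraries was compared as 16 cultures in 4 fractions. Per the submitters' processing notes and the study's methods, the authors aligned reads to mm10 with STAR 2.7.6 and counted uniquely mapped reads per gene with HTSeq 0.11.1 (RSEM 1.3.3 is also named). They deposited read counts per gene and counts of thymines (T) and T2C conversions in exons and introns, against Gencode M14. The authors also deposited the conversion rate of each library as a fraction, which they had fitted as the labeled part of a mixture of binomials. Background conversions were not subtracted, so that short labeling is the least precise. The smallest library had 15382522 gene counts. Reads that HTSeq did not assign to a gene made up 30.7 to 48.8% of each library and were left out of tests on read counts. They may include intron reads, which entered the T counts.

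Symbols came from Gencode M21 (GRCm38, the same build), which matched 99.6% of gene and 99.7% of exon identifiers. Counts were tested in edgeR 4.0.16 (R 4.3.3, quasi-likelihood F-test, TMM scaling, Benjamini-Hochberg adjustment over all features tested), with 1 group per fraction and condition and the contrast averaged over 8 conditions. For T measures, T_exon, or T times the conversion rate, entered as an offset. Minima were 400 T in exons and 100 in introns, and 400 in both for the intron over exon T2C share. SE was the log2 difference divided by the square root of F. In contrasts averaged over conditions, SE and p measure the spread within conditions and not that between replicate pairs. Cultures of the same replicate number at several times entered as separate cultures. Fractions of 1 culture came from 1 pellet. Deviations of same-culture nuclear and cytosolic libraries from their group means correlated at -0.09 to 0.43 over the 8 conditions, above 0.1 in 6. The fit with the culture as a replicate block was an alternative. Others were library size only, DESeq2 1.42.0, other minima, no conversion rate, the 120 min libraries put back, and each replicate left out. On simulated data for 15016 genes of the nucleus over cytosol comparison, 195 of 200 changed genes were recovered with 1 false call, and for 13912 genes of the exon T2C share comparison 161 of 200 with 3 false calls. The simulated libraries were independent, with 1 dispersion for all genes and changes of 1 on the log2 scale. No gene had its own effect of condition or replicate, and in the data far more genes were called. These rates therefore do not carry over to the calls reported here.

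The genes and lists were chosen with earlier results of these data known. The text names, for each comparison, the 5 called genes with the highest and the 5 with the lowest log2 value, a set of representative subunits of each class, and for exon use the 8 highest and 3 lowest exons. Other genes were named after their values were seen. The values of 1 gene that enters the counts are not reported here.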

Additional observations from a re-analysis of the deposited data

Results flagged for a closer look

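Within groups of 4 libraries of 1 labeling time, 5 class medians had an extreme library far from the others. In the nucleus, T_intron over T_exon of replicate 3 was 74.6% for hnRNP genes and 79.9% for core genes at 20 min, against 32.7 to 36.5% and 41.0 to 42.3% in the other replicates, and 36.2% and 51.2% at 60 min, against 8.82 to 10.6% and 13.6 to 15.0%. The hnRNP intron T2C share of replicate 4 at 60 min was 75.3%, against 90.5 to 92.8%. Chance gives such a gap in about 1 of 20 groups of like libraries, and 28 groups were examined. These groups hold different replicate pairs, and hnRNP and core medians come from the same libraries, so that this rate does not apply to them.

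At 20 min the log2 nucleus over cytosol ratio differed between replicates 1 and 2 and replicates 3 and 4, by the edgeR test of the difference itself, for 17 of the representative subunits. It was higher in replicates 1 and 2 by 1.63 for Hnrnpc, 1.57 for Snrpd1, 1.28 for Hnrnpk, 1.10 for Snrpa1, 1.09 for Hnrnpdl and 1.01 for both U2af1 and Sf3b1. Differences under 1 were found for Hnrnpll (0.94), Hnrnpa1 (0.85), Snrpb (0.82), Hnrnpa2b1 (0.68), Hnrnph1 (0.68), Snrpn (0.61), Hnrnpu (0.60) and Lsm1 (0.52). Prpf8 (-1.12) and Prpf40b (-1.38), the genes with the highest nucleus over cytosol ratios, differed the other way. Sf3b1, Hnrnpa2b1, Hnrnpdl and Hnrnpu changed sign between the pairs: Sf3b1 was at 0.96 in replicates 1 and 2 and -0.04 in replicates 3 and 4, and Hnrnpdl at 0.83 and -0.24.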

How the results depend on the processing

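No called result changed direction under the alternatives run. With library size only, 0 genes were higher and 54 lower in membrane, and at 20 min 18 genes were higher and 7 lower in replicates 1 and 2. Without the filter on low counts 36 genes were lower in membrane, and with a minimum of 2000 T 54 exons were lower in the nucleus. The cause of these changes was not tested.

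When each replicate was left out in turn, the genes lower in membrane numbered 13 (without replicate 3) to 24 (without replicate 4), the genes whose intron content fell with labeling time 0 to 61 (61 without replicate 3), and the genes higher and lower in replicates 1 and 2 at 20 min 19 to 49 and 1 to 5. Nucleus over cytosol counts stayed at 8 to 9 higher and 40 to 44 lower. Of single-gene values, 18 lost and 29 gained a call under the other alternatives, and 37 and 40 when a replicate was left out.

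With the replicate block, which pairs the fractions of a culture, the counts were 9 and 44 for nucleus over cytosol, 2 and 15 for membrane, 68 for intron content, 68 for exon T2C share (67 without it) and 66 for intron over exon share, and no count moved by over 1.5 times. Depth limits T2C shares, as the cytosolic share of 0 in 2 Hnrnph3 libraries shows.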
